A study of Homo sapiens with 6 samples.

Results

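The genes described here are 40 named genes of mitosis, chosen by name, by a rule that uses no array value, although earlier results of these data were known. Of these, 39 were measured among 18377 genes in all, each by a probe set whose only gene symbol is that gene. The remaining one, CENPA, has only a probe set shared with a second gene and was not used. By role, 8 of the 39 were cyclins, CDK1, transcription factors and parts of the anaphase-promoting complex, 10 belonged to the spindle checkpoint and kinetochore, 11 to the spindle, 8 to cytokinesis and 2 to the chromosomes themselves. RNA came from MCF10A-HER2/3 cells, a form of the human mammary epithelial line MCF10A, and was measured on 6 whole-transcript arrays. All cells carried a doxycycline-inducible lentiviral vector and grew for 15 days in three-dimensional culture in medium with EGF, insulin, cholera toxin, hydrocortisone and horse serum. Doxycycline was added a day after seeding and refreshed every 2 days in all groups, the control included. The groups were CTRL miR (control), SHP2 miR1 and SHP2 miR2, with 2 arrays each. Nothing in the labels says that replicates came from separate cultures or transductions, so each p-value reflects the scatter of these particular arrays alone, and that scatter may be technical. The question was which of these transcripts differ when SHP2, the tyrosine phosphatase encoded by PTPN11, is reduced, and the control replicates are given apart because they differed.

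Mitosis begins when CDK1 bound to cyclin B becomes active, after which chromosomes condense and microtubules build the spindle. Kinetochores tie chromosomes to the spindle, and the spindle checkpoint holds back the anaphase-promoting complex until all are attached. Once that complex destroys cyclin B and securin, chromatids part and an actomyosin ring divides the cell. Most genes of this set are transcribed late in the cell cycle, through CCAAT boxes bound by NF-Y and through the cell cycle homology region bound by the MuvB complex. MCF10A cells in three-dimensional culture form round acini that normally stop dividing, and HER2 signalling is known to keep such acini proliferating. In a bulk sample, fewer dividing cells and less RNA per dividing cell cannot be told apart.

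Values are the authors' log2 values, and every difference below is on that scale. Array medians over probe sets lay between 5.23 and 5.35, and replicates correlated at r = 0.985 to 0.986 across genes. Probe set values were spread more widely in control (SD 1.99 and 2.02) than in SHP2 miR2 (1.95 and 1.97) and SHP2 miR1 (1.92 on both arrays). PTPN11 read 7.96 and 8.44 in the controls, 6.04 and 5.71 under SHP2 miR1, and 6.90 and 7.28 under SHP2 miR2, so all 4 SHP2 miR arrays lay below both controls. Of 10 mammary epithelial markers, 7 were measured, with means from 6.05 for EPCAM to 11.3 for KRT5. Their summed log2 values were 65.2 to 65.3 in control, 66.4 to 67.4 with SHP2 miR1 and 66.9 to 67.3 with SHP2 miR2. Among the markers of other cell types, the brightest were DCN at 8.30 and CD68 at 9.22, while LUM at 3.06 and PTPRC at 3.33 were the dimmest of the fibroblast and immune lists. Summed values in control, SHP2 miR1 and SHP2 miR2 were 37.7 to 38.0, 37.4 to 37.8 and 37.1 to 37.7 for 7 fibroblast markers. They were 27.0 to 27.1, 28.1 to 28.4 and 27.7 to 28.7 for 5 immune markers, 24.6 to 24.8, 23.9 to 24.4 and 24.4 to 24.8 for 5 endothelial markers, and 18.6 to 19.2, 19.4 to 19.9 and 18.5 to 18.8 for 4 adipocyte markers. Arrays give no true zero, and the part of these markers in the results below was not tested.

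Promoter sequences are shown first for the 6 genes that passed the test in any comparison. These sequences let the 2 known late cell cycle elements be seen beside the values. Then follow 3 genes whose average difference was the smallest in size among genes that did not pass and had a promoter entry. Each run is the 120 bases before the start of transcription in RefSeq's table for GRCh38.p14, 5′ to 3′ on the gene's strand. Capitals mark CCAAT or its complement ATTGG, and TTTGAA or its complement TTCAAA, the core of the cell cycle homology region. The windows are ANLN chr7:36389742-36389861 (plus strand), KIF14 chr1:200620752-200620871 (minus strand), KIF23 chr15:69414229-69414348 (plus strand), HMMR chr5:163460512-163460631 (plus strand), ASPM chr1:197146670-197146789 (minus strand) and BUB1 chr2:110678064-110678183 (minus strand). Those of the 3 genes of small average difference are KIF20A chr5:138178992-138179111 (plus strand), PLK1 chr16:23678769-23678888 (plus strand) and CDC20 chr1:43358861-43358980 (plus strand).
ANLN: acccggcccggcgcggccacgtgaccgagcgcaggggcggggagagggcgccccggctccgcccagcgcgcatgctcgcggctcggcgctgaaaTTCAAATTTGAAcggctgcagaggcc
KIF14: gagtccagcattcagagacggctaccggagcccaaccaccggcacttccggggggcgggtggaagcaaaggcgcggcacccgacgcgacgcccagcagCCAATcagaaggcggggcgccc
KIF23: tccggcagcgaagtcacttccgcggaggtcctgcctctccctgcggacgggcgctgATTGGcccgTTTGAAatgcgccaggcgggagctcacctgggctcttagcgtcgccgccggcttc
HMMR: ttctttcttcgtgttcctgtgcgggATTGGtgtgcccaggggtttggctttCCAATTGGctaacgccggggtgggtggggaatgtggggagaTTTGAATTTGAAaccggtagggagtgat
ASPM: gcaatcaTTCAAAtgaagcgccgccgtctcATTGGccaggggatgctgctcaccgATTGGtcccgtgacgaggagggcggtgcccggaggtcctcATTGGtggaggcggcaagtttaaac
BUB1: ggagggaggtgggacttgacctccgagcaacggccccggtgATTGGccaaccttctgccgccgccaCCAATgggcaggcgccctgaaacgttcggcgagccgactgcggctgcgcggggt
KIF20A: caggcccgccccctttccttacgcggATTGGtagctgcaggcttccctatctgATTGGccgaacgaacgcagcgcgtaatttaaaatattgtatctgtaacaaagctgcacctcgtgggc
PLK1: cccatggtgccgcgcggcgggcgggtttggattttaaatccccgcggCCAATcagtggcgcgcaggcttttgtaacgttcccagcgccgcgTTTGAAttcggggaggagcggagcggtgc
CDC20: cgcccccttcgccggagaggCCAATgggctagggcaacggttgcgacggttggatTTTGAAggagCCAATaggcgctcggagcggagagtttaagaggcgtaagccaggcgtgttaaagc
ANLN held 2 cell cycle homology matches side by side and no CCAAT box in this stretch. HMMR, a spindle gene, held 3 CCAAT boxes, with 1 pair overlapping head to head, and 2 homology matches. BUB1 and KIF20A each held 2 CCAAT boxes and no homology match, although BUB1 passed the test and KIF20A did not. The average difference of KIF20A was small because it was -0.13 with SHP2 miR1 and 0.10 with SHP2 miR2. PLK1 and CDC20 held both elements. The difference of CDC20 was 0.21 with SHP2 miR1, where both arrays lay above both controls, and 0.07 with SHP2 miR2.

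Over the longer window, from 250 bases before to 50 after the start, 32 of the 39 measured genes had an entry in the promoter table. FOXM1, UBE2C, TTK, BIRC5, AURKA, TPX2 and RACGAP1 had none. A gene was counted as holding a motif where any of its start sites did, on either strand. CCAAT occurred in 26 of 32 (81.2%), against 42.2% of the 14210 genes on the arrays that have an entry. TTTGAA occurred in 23 of 32 (71.9%), against 15.7% of those genes. Both occurred in 19 of 32 (59.4%), against 8.09%. CENPE, the kinetochore motor, and KIF2C, which takes microtubules apart, held neither. Of 27 genes of S phase, 19 (70.4%) held CCAAT and 1 (3.70%) held TTTGAA. A match is a description of the letters, not evidence of binding.

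Across the 39 genes, values with SHP2 miRs were mostly below control, but few genes passed the test. The difference averaged over both SHP2 miRs was below 0 for 36 of 39 genes, against 47.2% of all genes, and its median was -0.36, against 0.02 over all genes. It ranged from -1.03 for ANLN, which scaffolds the contractile ring, to 0.16 for AURKB, the kinase of the chromosomal passenger complex. ANLN and the checkpoint kinase BUB1 fell at an adjusted p under 0.05 (limma, Benjamini-Hochberg over all 18377 genes), 2 of 39, against 2.67% of all genes. No gene of the set rose, against 1.53% of all genes. At an unadjusted p under 0.05, 19 of 39 were lower (48.7%), against 12.6% of all genes, and 0 were higher, against 8.31% of all genes. All 4 SHP2 miR arrays lay below both controls for 16 of 39 (41.0%), against 13.6% of all genes. Dropping the first control array moved the median of the set to -0.57, and dropping the second moved it to -0.26. With any single SHP2 miR array dropped, it lay between -0.43 and -0.32. Each of these fits leaves 1 array in a group. Fewer genes then passed over all genes as well, so fewer calls in such a fit are not particular to this set. Under quantile normalization or cyclic loess, 32 of 39 were below 0, because PLK1, UBE2C, RACGAP1 and KIF20A, all within 0.06 of 0, turned to slightly above it.

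**Figure D1:**
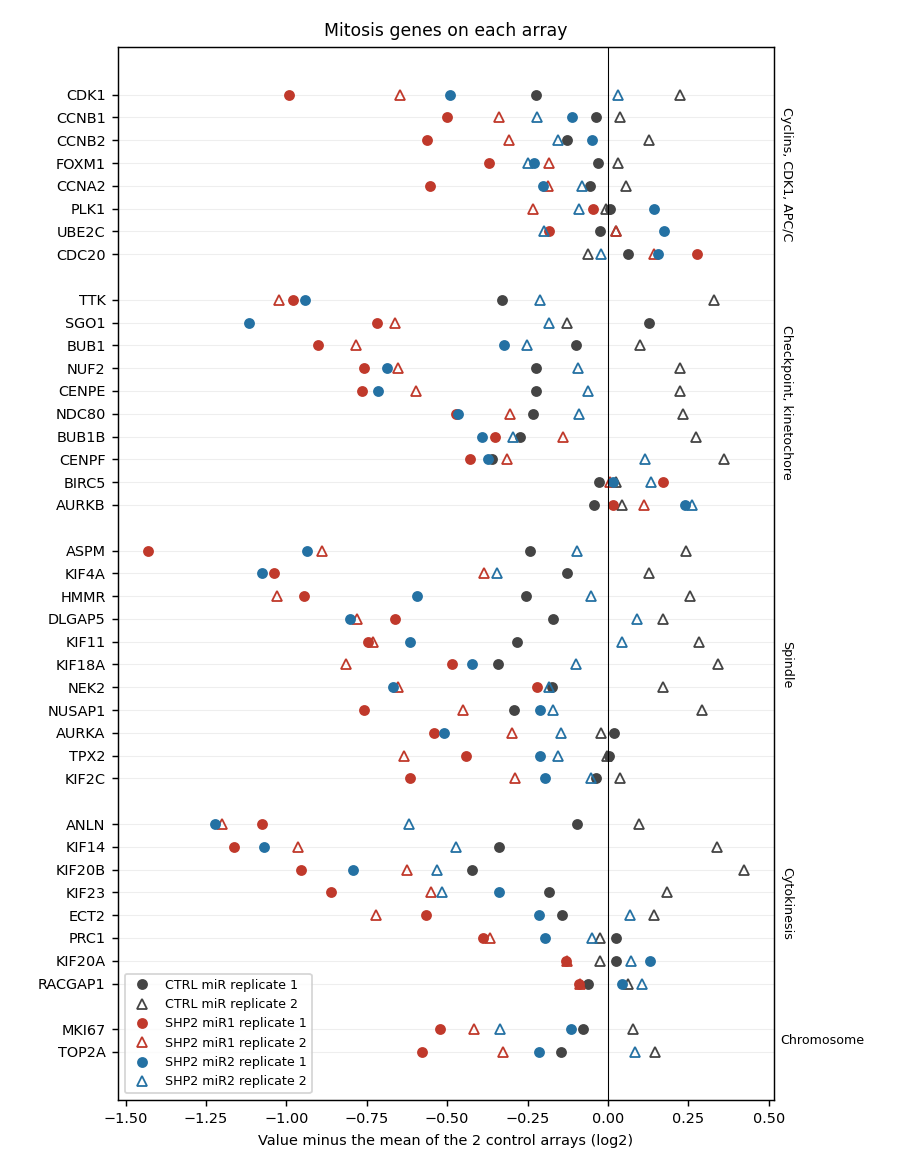
Value of each of the 39 mitosis genes on each of the 6 arrays, as the log2 value minus the mean of the 2 control arrays. Circles are replicate 1 and triangles replicate 2, in black for CTRL miR, red for SHP2 miR1 and blue for SHP2 miR2. The red points lie furthest left for most spindle and cytokinesis genes, while PLK1, UBE2C, CDC20, BIRC5, AURKB, KIF20A and RACGAP1 stay close to the line at 0.

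The median difference was further from 0 with SHP2 miR1 than with SHP2 miR2. With SHP2 miR1 the median was -0.47 (range -1.16 to 0.21), against 0.04 over all genes, and 36 of 39 were below 0, against 45.9% of all genes. ANLN, KIF14, KIF23, HMMR, ASPM and BUB1 fell, 6 of 39 (15.4%), against 5.94% of all genes. None rose, against 2.66% of all genes. At an unadjusted p under 0.05, 26 of 39 (66.7%) were lower, against 16.0% of all genes. Both SHP2 miR1 arrays lay below both controls for 33 of 39, against 29.0% of all genes, and above both for CDC20 alone, against 30.5% of all genes. Dropping the second control array moved the median of the set to -0.39, and dropping the first moved it to -0.61. It became -0.42 with the first SHP2 miR1 array dropped and -0.56 with the second dropped. In each of these fits, too, 1 array was left in a group and fewer genes passed over all genes. Centring arrays on their medians moved the share of lower genes among all genes called in this comparison from 69.1% to 80.3%.

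With SHP2 miR2 the median was -0.24 (range -0.92 to 0.25), against -0.01 over all genes, and 33 of 39 were below 0, against 51.8% of all genes. None of the 39 passed the test in limma, against 0.180% of all genes called lower and 0.190% called higher, and the lowest adjusted p of the set was 0.124, for ANLN. At an unadjusted p under 0.05, 6 of 39 were lower, against 5.88% of all genes. The median was -0.09 without control replicate 2, -0.45 without control replicate 1, and -0.10 without SHP2 miR2 replicate 1. With a mean-variance trend in the prior, 1 gene of the set, ANLN, passed. Both SHP2 miR2 arrays lay below both controls for 17 of 39, against 20.8% of all genes, and above both for AURKB and KIF20A, against 19.8% of all genes. The SHP2 miR comparisons share their control arrays, so their values are given side by side and are not 2 separate observations.

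**Figure D2:**
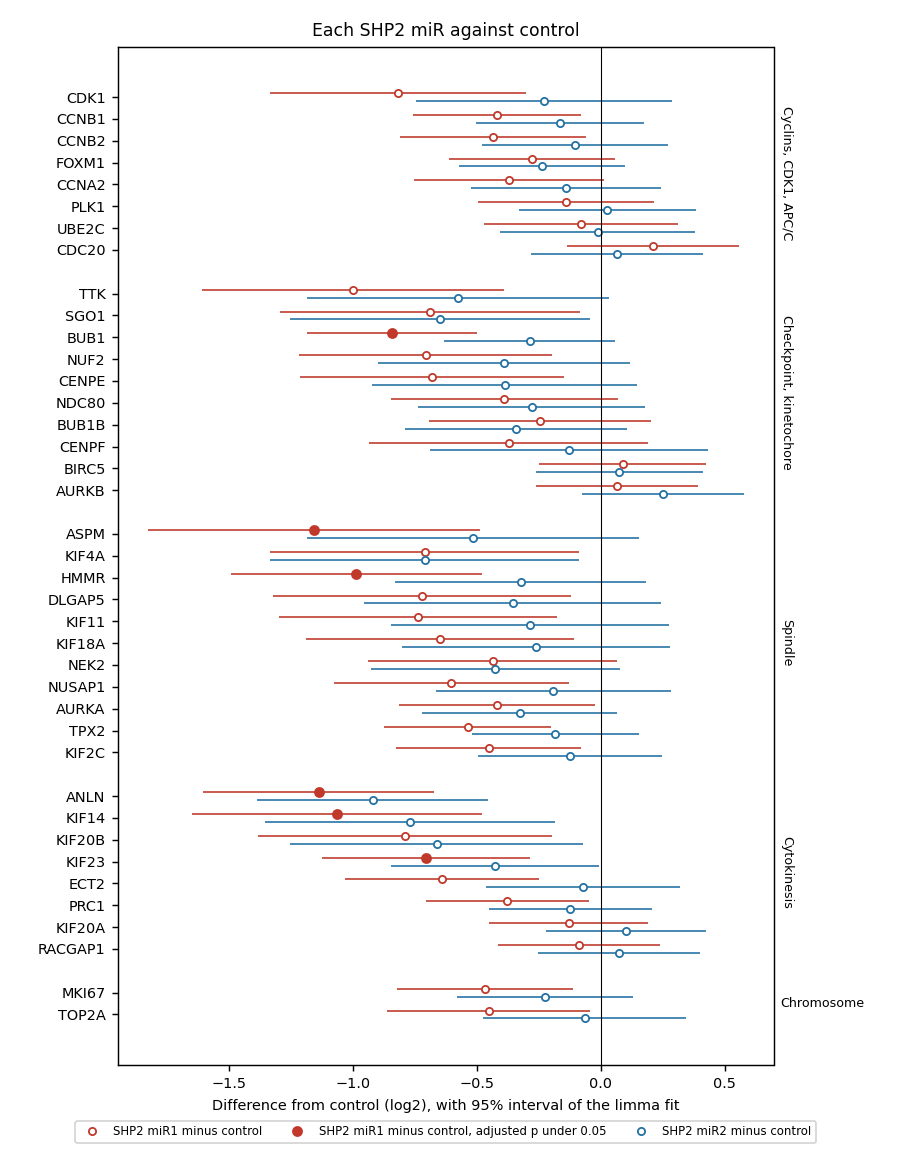
Difference from control of each mitosis gene on the log2 scale, with its 95% interval from the limma fit, for SHP2 miR1 (red) and SHP2 miR2 (blue). Filled points mark an adjusted p under 0.05 over all genes, which 6 genes reached with SHP2 miR1 and none with SHP2 miR2. All 11 spindle genes lie to the left of 0 in both comparisons.

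The control arrays differed from each other in most of these genes. Control replicate 2 was above control replicate 1 for 32 of 39 genes, against 50.1% of all genes, with a median difference of 0.25. It was above by more than 0.5 for 9 of 39, against 4.59% of all genes, and below by more than 0.5 for none, against 4.24% of all genes. Against control replicate 1 alone, the median difference of the set was -0.46 and -0.32 for SHP2 miR1 replicates 1 and 2, and -0.20 and -0.01 for SHP2 miR2 replicates 1 and 2. The genes lower than that control numbered 36, 33, 30 and 21 of 39 in the same order. Against control replicate 2 alone, the medians were -0.71, -0.54, -0.51 and -0.26, and the genes lower numbered 37, 37, 34 and 34. SHP2 miR2 replicate 2 therefore lay level with control replicate 1 in the median and below control replicate 2. With 1 array against 1 array there is no test.

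The widest control gaps were in KIF20B, a kinesin of the midzone, in CENPF, a kinetochore protein, and in KIF18A, a kinesin that limits chromosome movement. KIF20B read 4.91 and 5.75 in control replicates 1 and 2, 4.38 and 4.71 under SHP2 miR1, and 4.54 and 4.80 under SHP2 miR2. All 4 SHP2 miR arrays were below the lower control, yet the gap of 0.84 between controls exceeded the average difference of -0.73 (adjusted p = 0.117, limma). CENPF read 6.39 and 7.11 in the controls, 6.32 and 6.44 under SHP2 miR1, and 6.38 and 6.87 under SHP2 miR2. Its first control lay among the SHP2 miR arrays, so the groups overlapped. KIF18A read 5.05 and 5.73 in the controls, 4.90 and 4.57 under SHP2 miR1, and 4.97 and 5.29 under SHP2 miR2. Its second SHP2 miR2 array lay between the controls. The lowest signed values were in SGO1, CDC20 and PRC1, in which control replicate 2 was lower, by 0.25 for SGO1, 0.12 for CDC20 and 0.05 for PRC1.

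The replicates of SHP2 miR2 also differed in this set. Replicate 2 minus replicate 1 had a median of 0.26 with SHP2 miR2, with 12 of 39 above 0.5, against 4.88% of all genes. It had a median of 0.11 with SHP2 miR1, with 2 of 39 above 0.5, against 3.50% of all genes. Replicate 2 was above replicate 1 for 28 of 39 genes with SHP2 miR1, against 50.9% of all genes. With SHP2 miR2 it was above for 30 of 39, against 49.7% of all genes. Over all genes the medians were 0.00, 0.01 and 0.00 in control, SHP2 miR1 and SHP2 miR2. By role, the control gap had a median of 0.45 in checkpoint and kinetochore genes, 0.35 in spindle genes, 0.24 in cytokinesis genes and 0.07 in the cyclin group. The SHP2 miR2 gap was 0.43, 0.48, 0.20 and -0.11 in the same order. Across the 39 genes the control gap and the SHP2 miR2 gap correlated at r = 0.40, and across all genes at 0.14, as a description over genes that share arrays. The labels tie no replicate number to a shared batch.

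**Figure D3:**
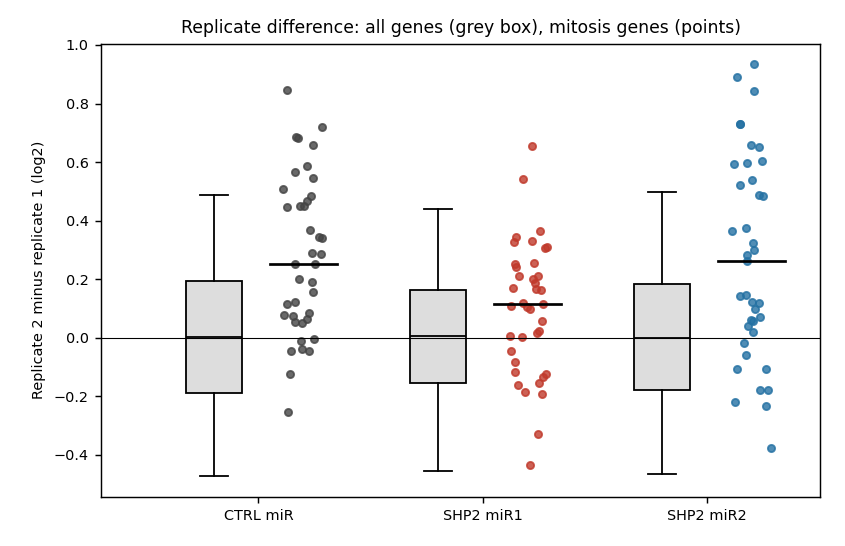
Replicate 2 minus replicate 1 (log2) within each group. Grey boxes span the quartiles of all 18377 genes with whiskers at the 5th and 95th percentiles, and points are the 39 mitosis genes with their median as a bar. The bars lie at 0.25 in CTRL miR, 0.11 in SHP2 miR1 and 0.26 in SHP2 miR2, while the boxes are centred at 0.

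Cytokinesis genes held 3 of the 6 genes that fell with SHP2 miR1. ANLN, KIF14 and KIF23 fell, and the other 5 of 8 did not pass the test; over all genes 5.94% were called lower in this comparison. The medians of the 8 were -0.67 with SHP2 miR1 and -0.28 with SHP2 miR2. ANLN (chromosome 7) read 8.24 and 8.43 in control replicates 1 and 2, 7.26 and 7.14 under SHP2 miR1, and 7.12 and 7.72 under SHP2 miR2. Every SHP2 miR array was below both controls by more than the controls differed. ANLN fell by 1.03 on average (SE 0.18, adjusted p = 0.0151, limma) and by 1.14 with SHP2 miR1 (SE 0.21, 2.20-fold, adjusted p = 0.0135). Its difference under SHP2 miR2 was -0.92 (95% interval -1.39 to -0.45, adjusted p = 0.124). The average call was lost without control replicate 1 (adjusted p = 0.0746) or control replicate 2 (adjusted p = 0.203), and the SHP2 miR1 call without control replicate 2 (adjusted p = 0.131) or SHP2 miR1 replicate 2 (adjusted p = 0.0663).

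KIF14, a kinesin that brings citron kinase to the midbody, read 5.86 and 6.54 in the controls, 5.04 and 5.24 under SHP2 miR1, and 5.13 and 5.73 under SHP2 miR2. All 4 SHP2 miR arrays were below both controls, the highest of them by less than the controls' own gap. With SHP2 miR1 it fell by 1.06 (SE 0.26, 2.09-fold, adjusted p = 0.0382, limma), a call lost without control replicate 2 (adjusted p = 0.253, difference -0.72), SHP2 miR1 replicate 1 (adjusted p = 0.151) or SHP2 miR1 replicate 2 (adjusted p = 0.0861). The SHP2 miR2 difference was -0.77 (adjusted p = 0.312). KIF23, the kinesin of the centralspindlin complex, read 7.24 and 7.61 in the controls, 6.56 and 6.87 under SHP2 miR1, and 7.08 and 6.91 under SHP2 miR2. The SHP2 miR arrays again lay below both controls. It fell by 0.71 with SHP2 miR1 (SE 0.19, 1.63-fold, adjusted p = 0.0487), which no longer passed with any 1 array left out (adjusted p = 0.0510 to 0.286), under quantile normalization (0.0791) or cyclic loess (0.0797), or in a fit on only the groups compared (0.0665).

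RACGAP1, the partner of KIF23 in centralspindlin, lay near control on all arrays. It read 7.71 and 7.83 in the controls, 7.68 and 7.68 under SHP2 miR1, and 7.81 and 7.87 under SHP2 miR2, and its average difference was -0.01 (adjusted p = 0.983, limma). KIF20A, a kinesin that brings passenger proteins to the midzone, read 8.06 and 8.01 in the controls, 7.90 and 7.91 under SHP2 miR1, and 8.17 and 8.11 under SHP2 miR2. Its SHP2 miR1 arrays lay just below both controls and its SHP2 miR2 arrays just above. ECT2, the exchange factor that activates RhoA at the cell equator, read 6.84 and 7.13 in the controls, 6.42 and 6.27 under SHP2 miR1, and 6.77 and 7.05 under SHP2 miR2. Only its SHP2 miR1 arrays stood apart, at -0.64 (adjusted p = 0.0529). PRC1, which bundles midzone microtubules, read 8.37 and 8.32 in the controls, 7.95 and 7.98 under SHP2 miR1, and 8.15 and 8.29 under SHP2 miR2. All 4 were below the controls, with an average difference of -0.25 (adjusted p = 0.296).

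The mean of each SHP2 miR was below the control mean in every spindle gene: all 11 had a difference below 0 with SHP2 miR1, with SHP2 miR2 and on average. The medians were -0.65 with SHP2 miR1 and -0.32 with SHP2 miR2, and both SHP2 miR1 arrays lay below both controls in all 11, against 29.0% of all genes. SHP2 miR2 replicate 2 was nevertheless above control replicate 1 in 6 of 11. HMMR and ASPM fell with SHP2 miR1, 2 of 11, against 5.94% of all genes. None of the 11 passed the test on average, against 2.67% of all genes called lower, or with SHP2 miR2, against 0.180%. With so few genes, 0 of 11 says little about the class. HMMR, which binds spindle microtubules, read 5.47 and 5.97 in the controls, 4.78 and 4.69 under SHP2 miR1, and 5.13 and 5.67 under SHP2 miR2. Its second SHP2 miR2 array lay between the controls. It fell by 0.99 with SHP2 miR1 (SE 0.22, 1.98-fold, adjusted p = 0.0311, limma), a call lost without control replicate 2 (adjusted p = 0.221), SHP2 miR1 replicate 1 (adjusted p = 0.0975) or SHP2 miR1 replicate 2 (adjusted p = 0.110).

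ASPM, which focuses spindle poles, read 6.68 and 7.17 in the controls, 5.49 and 6.04 under SHP2 miR1, and 5.99 and 6.83 under SHP2 miR2. It had the largest difference of the 39 with SHP2 miR1, and its second SHP2 miR2 array lay between the controls. It fell by 1.16 with SHP2 miR1 (SE 0.30, 2.23-fold, adjusted p = 0.0448, limma). The call was lost under cyclic loess (adjusted p = 0.0551) and without control replicate 1 (0.0645), control replicate 2 (0.287), SHP2 miR1 replicate 1 (0.191) or SHP2 miR1 replicate 2 (0.0563), each an adjusted p. KIF4A, a chromokinesin, read 6.84 and 7.09 in the controls, 5.93 and 6.58 under SHP2 miR1, and 5.89 and 6.62 under SHP2 miR2. Its mean was equally low with both SHP2 miRs, with an average difference of -0.71 (adjusted p = 0.140). TPX2, which activates AURKA at the spindle, read 8.18 and 8.18 in the controls, 7.74 and 7.55 under SHP2 miR1, and 7.97 and 8.02 under SHP2 miR2. Its controls were the closest to each other of these examples, and its difference of -0.54 with SHP2 miR1 had an adjusted p of 0.0572. The other 7 spindle genes, AURKA, NEK2, KIF11, KIF18A, KIF2C, NUSAP1 and DLGAP5, differed by -0.54 to -0.29 on average.

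Among checkpoint and kinetochore genes, 1 of 10 fell, against 2.67% of all genes on average and 5.94% with SHP2 miR1, so that 1 gene says little about the class. AURKB and BIRC5 had an average difference above 0. The medians were -0.54 with SHP2 miR1 and -0.32 with SHP2 miR2. BUB1, a kinase that builds the checkpoint signal at kinetochores, read 6.26 and 6.45 in the controls, 5.45 and 5.57 under SHP2 miR1, and 6.03 and 6.10 under SHP2 miR2. Each pair of replicates was close, and all 4 SHP2 miR arrays were below both controls. It fell by 0.57 on average (SE 0.13, adjusted p = 0.0488, limma) and by 0.84 with SHP2 miR1 (SE 0.15, 1.79-fold, adjusted p = 0.0132). The average call was lost under cyclic loess (adjusted p = 0.0567) and with any 1 array left out (adjusted p = 0.0860 to 0.352). The SHP2 miR1 call was lost without control replicate 2 (adjusted p = 0.117), SHP2 miR1 replicate 1 (adjusted p = 0.0855) or SHP2 miR1 replicate 2 (adjusted p = 0.0540).

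TTK, the kinase that starts checkpoint signalling, read 5.0 and 5.66 in the controls, 4.35 and 4.31 under SHP2 miR1, and 4.39 and 5.12 under SHP2 miR2. It was low on 3 SHP2 miR arrays and between the controls on the second SHP2 miR2 array, with an average difference of -0.79 (adjusted p = 0.102, limma). With SHP2 miR1 alone the TTK difference was -1.001 (95% interval -1.61 to -0.39, limma adjusted p = 0.0529), which missed the threshold narrowly. TTK passed with SHP2 miR1 in 7 of the 8 alternatives that left out no single array. SGO1, which protects centromeric cohesion, read 5.62 and 5.37 in the controls, 4.78 and 4.83 under SHP2 miR1, and 4.38 and 5.31 under SHP2 miR2. Its SHP2 miR2 replicates were 0.93 apart, the most of any gene in the set, and its average difference was -0.67 (adjusted p = 0.148). AURKB read 7.08 and 7.17 in the controls, 7.14 and 7.24 under SHP2 miR1, and 7.37 and 7.39 under SHP2 miR2. BIRC5, which encodes survivin, its partner in the passenger complex, read 6.88 and 6.93 in the controls, 7.07 and 6.91 under SHP2 miR1, and 6.92 and 7.04 under SHP2 miR2. Neither passed the test, at 0.16 (adjusted p = 0.513) for AURKB and 0.08 (adjusted p = 0.762) for BIRC5 on average. The other 5, BUB1B, NDC80, NUF2, CENPE and CENPF, differed by -0.55 to -0.25 on average.

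None of the 8 genes of the cyclin group passed the test in limma in any comparison. Over all genes, 2.67% were called lower on average, 5.94% with SHP2 miR1 and 0.180% with SHP2 miR2. With so few genes, 0 of 8 says little about the class. Its medians were -0.32 with SHP2 miR1 and -0.12 with SHP2 miR2. CDK1, the mitotic kinase, read 6.11 and 6.55 in the controls, 5.34 and 5.68 under SHP2 miR1, and 5.84 and 6.36 under SHP2 miR2. Its SHP2 miR1 arrays were below both controls, and its second SHP2 miR2 array lay between them. The difference with SHP2 miR1 was -0.82 (95% interval -1.34 to -0.30, adjusted p = 0.0585). It passed in 4 of the 8 alternatives that left out no single array. CCNB1, its cyclin partner, read 9.53 and 9.60 in the controls, 9.06 and 9.23 under SHP2 miR1, and 9.45 and 9.35 under SHP2 miR2. All 4 SHP2 miR arrays were lower, with an average difference of -0.29 (adjusted p = 0.240). With SHP2 miR1, CCNB1 and CCNB2 each passed in 1 of those 8 alternatives.

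CDC20, which activates the anaphase-promoting complex, read 8.01 and 7.89 in the controls, 8.23 and 8.09 under SHP2 miR1, and 8.10 and 7.93 under SHP2 miR2. It was the only gene of the set with both SHP2 miR1 arrays above both controls, and its average difference was 0.14 (adjusted p = 0.595, limma). PLK1, a kinase of mitotic entry, read 8.43 and 8.42 in the controls, 8.38 and 8.19 under SHP2 miR1, and 8.57 and 8.33 under SHP2 miR2. UBE2C, the ubiquitin-conjugating enzyme of the complex, read 7.65 and 7.70, 7.49 and 7.70, and 7.85 and 7.48 in the same order. For both genes the SHP2 miR arrays lay on either side of the controls. CCNB2, CCNA2 and FOXM1, the transcription factor of late cell cycle genes, differed by -0.27 to -0.26 on average.

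For the chromosome genes, neither passed the test, against 2.67% of all genes called lower on average and 5.94% with SHP2 miR1. MKI67, which encodes the proliferation marker Ki-67, read 6.83 and 6.98 in the controls, 6.38 and 6.49 under SHP2 miR1, and 6.79 and 6.57 under SHP2 miR2, all 4 below the controls and -0.35 on average (adjusted p = 0.192, limma). TOP2A, a topoisomerase that untangles chromatids, read 7.78 and 8.07 in the controls, 7.35 and 7.60 under SHP2 miR1, and 7.71 and 8.01 under SHP2 miR2. Its SHP2 miR2 arrays overlapped the controls, and its average difference was -0.26 (adjusted p = 0.384).

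Compared as classes, the median average differences were -0.46 in spindle genes, -0.46 in cytokinesis genes, -0.43 in checkpoint and kinetochore genes and -0.26 in the cyclin group. These are descriptions, since the genes of a class share arrays. Against control replicate 1 alone, the medians were -0.36 in spindle, -0.29 in cytokinesis, -0.21 in checkpoint and -0.17 in cyclin genes. Against control replicate 2 alone, they were -0.71, -0.63, -0.59 and -0.30. All 11 spindle genes were lower than either control in the mean of the SHP2 miR arrays, against 7 of 8 cytokinesis genes, 7 of 10 checkpoint genes against control replicate 1 and 8 of 10 against control replicate 2.

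Set directly against each other, SHP2 miR2 was above SHP2 miR1 for 35 of 39 genes, against 50% of all genes, with a median of 0.25. None passed the test in limma, against 0.152% of all genes called higher, and the lowest adjusted p was 0.142. At an unadjusted p under 0.05, 5 of 39 were higher, against 8.72% of all genes. Both SHP2 miR2 arrays lay above both SHP2 miR1 arrays for 19 of 39, against 26.4% of all genes. The 5 were BUB1 at 0.55 (95% interval 0.21 to 0.90), HMMR at 0.66 (0.15 to 1.17), CDK1 at 0.59 (0.07 to 1.11), ECT2 at 0.57 (0.18 to 0.96) and TPX2 at 0.35 (0.02 to 0.69). These intervals are not adjusted for the number of genes, and 5 of 39 is not far from the 8.72% of all genes. ANLN differed by 0.22 (95% interval -0.25 to 0.68) and KIF4A by 0.00 (-0.62 to 0.62) between the SHP2 miRs, intervals wide enough to hold a difference of 0.5 in either gene.

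Differences in this set went with a gene's mean array value, which also depends on its probes, and with its genomic span. The 19 brighter genes (means 6.79 to 9.37) had a median average difference of -0.26 and the 20 dimmer ones (4.27 to 6.75) one of -0.54. The control gap had medians of 0.07 and 0.48 in the brighter and the dimmer genes, and the median genomic span was 19.5 kb and 54.1 kb. Across the 39 genes, the level correlated with the average difference at r = 0.55 and with the control gap at r = -0.64, whereas across all genes these were -0.19 and 0.13. The log2 of the span correlated with the average difference at r = -0.68 and with the control gap at r = 0.60, and across all genes at -0.20 and 0.18. These values share arrays and are descriptions over genes. The controls enter both the average difference and the control gap, and the part of level and span in the results was not tested. As a set, the 39 had a median span of 33.8 kb, against 24.5 kb over all genes, and a median level of 6.75, against 5.79.

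**Figure D4:**
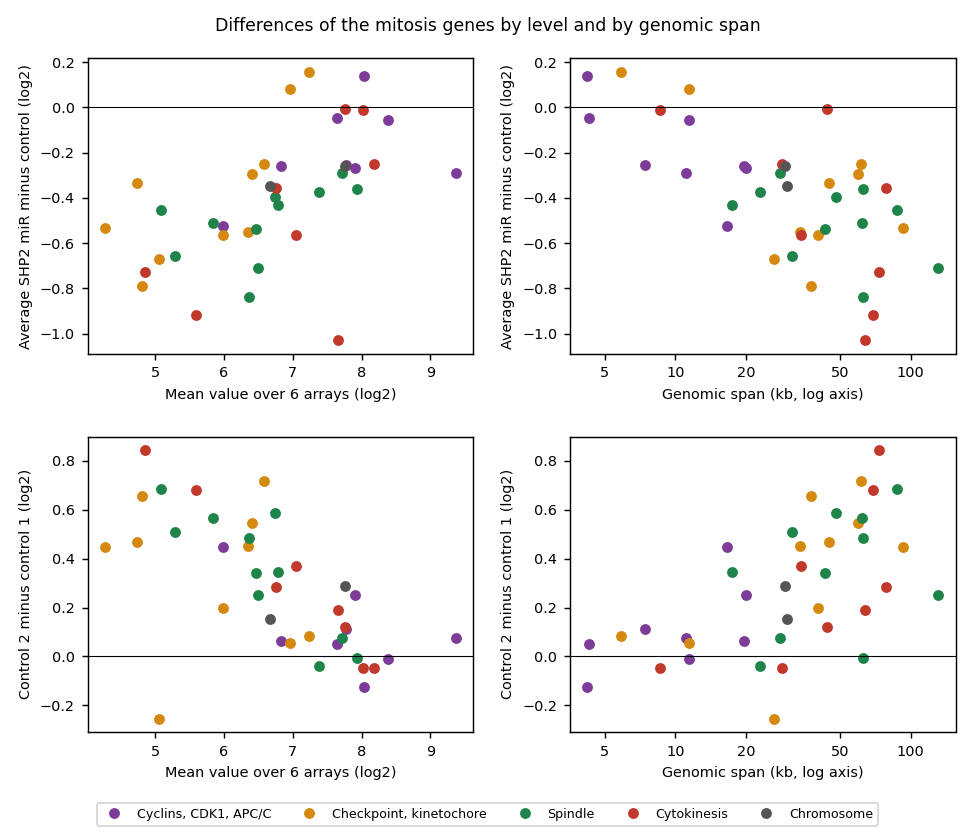
Average difference (upper panels) and control replicate 2 minus replicate 1 (lower panels), both log2, of each mitosis gene against its mean value over the 6 arrays (left) and its genomic span in kb on a log axis (right), coloured by role. The dim and long genes sit lower in the upper panels and higher in the lower ones, with ANLN, at a difference of -1.03, the lowest although it is among the brighter genes.

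The median difference was smaller in other genes of mitosis. In 67 further genes of the checkpoint, spindle, cytokinesis, mitotic entry and exit and condensin, the median average difference was -0.21, and 54 of 67 were below 0. By role it was -0.31 in cytokinesis, -0.22 in checkpoint and kinetochore, -0.18 in entry, exit and condensin and -0.16 in spindle genes, so the spindle genes were here the least far from 0. On average 1 of 67 fell (1.49%, against 2.67% of all genes), SMC2, a condensin subunit, by 0.86 (SE 0.19, adjusted p = 0.0365, limma). With SHP2 miR1 5 of 67 fell (7.46%, near the 5.94% of all genes), SMC2 by 1.02 (adjusted p = 0.0242), the centromere proteins CENPI by 0.94 (0.0269) and CENPK by 0.90 (0.0344), SGO2, a paralogue of SGO1, by 0.68 (0.0355) and MYH10, a non-muscle myosin heavy chain, by 0.61 (0.0449), each with its adjusted p. None of the 67 passed with SHP2 miR2, against 0.180% of all genes called lower. Without control replicate 2 these SHP2 miR1 calls were lost, at adjusted p = 0.156 for SMC2, 0.188 for CENPI, 0.236 for CENPK, 0.223 for SGO2 and 0.253 for MYH10, and SMC2's average call stood at 0.314. Without SHP2 miR1 replicate 1 they were lost too (0.0848, 0.146, 0.156, 0.149 and 0.135 in that order). Without SHP2 miR1 replicate 2, SMC2 (0.0886), CENPK (0.0774), SGO2 (0.124) and MYH10 (0.184) were lost, and without control replicate 1 CENPI (0.0628) and MYH10 (0.0532). MYH10 was lost as well without either SHP2 miR2 array or in a fit on only the groups compared (0.0643 in each), under quantile normalization (0.0797) and under cyclic loess (0.0840), and SMC2's average call without SHP2 miR1 replicate 1 (0.0680) or 2 (0.0730) or SHP2 miR2 replicate 1 (0.109) or 2 (0.0617).

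Genes of S phase, which copy the DNA before mitosis, did not show the difference from control to the same extent. Over 29 of them the median average difference was -0.06 (SHP2 miR1 -0.10, SHP2 miR2 -0.02). None passed the test in limma, with a lowest adjusted p of 0.129 on average and 0.0718 with SHP2 miR1. Over all genes, 2.67% were called lower on average, 5.94% with SHP2 miR1 and 0.180% with SHP2 miR2. With so few genes, 0 of 29 says little about S phase. They did show the gap between the controls, with control replicate 2 higher in 21 of 29 and a median of 0.25, equal to that of the mitosis genes. Against control replicate 1 alone the mean of the SHP2 miR arrays was higher in 20 of 29 S phase genes (median 0.12), and lower in 34 of 39 mitosis genes (median -0.26). Against control replicate 2 alone it was lower in 22 of 29 (median -0.22) and in 35 of 39 (median -0.57). The difference between the lists was not tested.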

How the data were processed

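Each of 6 arrays gave 1 deposited value per probe set on a log2 scale, made by the authors with R 2.10 and oligo 1.8, per the submitters' processing notes. Base 2 was inferred from the range. The sources used here do not give the background correction, normalization or summary method. Of 28869 probe sets, 19310 had 1 symbol in the platform annotation, 1752 several and 7807 none, and the highest of a gene's probe sets was kept. With limma 3.58.1 (R 4.3.3), 1 linear model held all 3 groups and 6 arrays, with eBayes (3 residual, 6.10 prior degrees of freedom). Two-sided p-values got Benjamini-Hochberg adjustment over 18377 genes, threshold 0.05. Alternatives were a mean-variance trend, dim genes left out, quantile, cyclic loess or median scaling, averaged probe sets, a replicate block, only the groups compared, and each array left out. The working of the fit was checked on simulated data with independent noise, which says nothing about the scatter of these arrays. The number of arrays limits the precision.

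Genes and lists were chosen with earlier results of these data known. Arrays are given singly for genes past the threshold, the 2 of largest average difference in each class, and any with an average difference above 0. They are also given for the 3 highest and 3 lowest signed values of control replicate 2 minus replicate 1. Those of KIF20A, RACGAP1, ECT2, TPX2, PLK1 and UBE2C were added after their values were seen. The main fit did not pair arrays by replicate number, since over all genes the deviations of same-numbered arrays correlated little. Whether same-numbered arrays share a shift in the mitosis genes was not tested.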

Additional observations from a re-analysis of the deposited data

Results flagged for a closer look

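KIF20A, the midzone kinesin, was singled out because both SHP2 miR1 arrays lay below both controls and both SHP2 miR2 arrays above them. Over all genes, 29.0% had both SHP2 miR1 arrays below both controls, and 19.8% had both SHP2 miR2 arrays above them. The share of genes with the joint pattern was not counted. SHP2 miR2 exceeded SHP2 miR1 by 0.23 on the log2 scale (95% interval -0.09 to 0.55, limma adjusted p = 0.412), a difference that did not pass the test.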

How the results depend on the processing

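Of 1508 values of single genes under the alternatives, 1359 kept their direction and side of the threshold, 62 lost the threshold, 57 gained it and 30 changed sign; the causes were not tested beyond what each alternative leaves out. As reported, 771 genes were called on average, 1581 with SHP2 miR1, 68 with SHP2 miR2 and 35 between the SHP2 miRs. With a mean-variance trend, 1793 genes and 8 of the 39 were called on average, 2786 and 19 with SHP2 miR1, 367 and 1 with SHP2 miR2, and 446 genes between the SHP2 miRs. With dim genes left out, 10 of the 37 remaining and 2118 genes passed with SHP2 miR1, and 154 genes were called with SHP2 miR2 and 95 between the SHP2 miRs. These counts are over fewer genes than the 18377 of the main fit. Centring gave 10 of 39 and 1914 genes with SHP2 miR1, 69 genes between the SHP2 miRs and -0.017 for AURKB with SHP2 miR1. Cyclic loess left 1 of 39 on average, and fits on only the groups compared called 12 genes between the SHP2 miRs. Sign changes under quantile normalization were PLK1 0.016, UBE2C 0.026, RACGAP1 0.068 and KIF20A 0.065 on average, and UBE2C 0.038 and RACGAP1 0.030 with SHP2 miR1; under cyclic loess these were 0.0054, 0.024, 0.062, 0.054, 0.040 and 0.032.

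Over all genes, same-numbered arrays' deviations correlated at 0.0669, 0.140 and 0.0134, so the numbers show little pairing there. In the mitosis genes, replicate 2 was above replicate 1 for 32, 28 and 30 of 39 in control, SHP2 miR1 and SHP2 miR2. With the replicate block, 6 of 39 and 817 genes were called on average, 11 and 1709 with SHP2 miR1, and 37 genes with SHP2 miR2 and 12 between the SHP2 miRs; KIF23 (limma adjusted p = 0.05004) and MYH10 (0.0517) then missed the threshold with SHP2 miR1.

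Leaving out 1 array at a time gave 108 to 512 genes and 0 to 3 of the 39 on average (median -0.57 to -0.26), 269 to 1308 and 0 to 8 with SHP2 miR1 (median -0.61 to -0.39), 0 to 60 and 0 with SHP2 miR2 (median -0.45 to -0.085), and 0 to 15 and 0 between the SHP2 miRs (median 0.17 to 0.36). A group's remaining array was then assumed to vary like the other groups. Genes that changed sign ranged on average KIF20A -0.037 to 0.010, CENPF -0.61 to 0.11, RACGAP1 -0.068 to 0.054, UBE2C -0.14 to 0.048, PLK1 -0.11 to 0.0015, and with SHP2 miR1 BUB1B -0.52 to 0.028, UBE2C -0.18 to 0.025, and with SHP2 miR2 CENPF -0.49 to 0.23, KIF18A -0.60 to 0.082, TOP2A -0.21 to 0.085, CDK1 -0.49 to 0.030, CDC20 -0.023 to 0.16.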
